A study of Homo sapiens with 16 samples.

Results

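A set of 10 genes of cellular iron handling were followed in the MDA-MB-231 and the MDA-MB-468 line, both established human breast cancer cells that lack the estrogen receptor. The 10 genes were taken by name from a table of 18332 genes, and all 10 were present: TFRC, TF, STEAP3 and SLC11A2 for uptake, FTH1 and FTL for storage, SLC40A1 for export, and ACO1, IREB2 and FBXL5 for sensing. For 48 hours the cells were kept either at 5 mM glucose, the control that is called low glucose here, or at 25 mM, called high glucose, which models hyperglycemia, with 4 replicates in each of the 4 groups and 16 RNA-Seq libraries in all. According to the study's methods, MDA-MB-231 was maintained in DMEM and MDA-MB-468 in RPMI. All cells were first conditioned in low glucose, and the media of the glucose experiment held no serum. The low- and high-glucose media among the study's reagents are DMEM. The base medium of the experiment is not named for each line. Each line is 1 cell line, so the results describe these lines and not a tumor subtype.

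The list was selected on the TFRC values of MDA-MB-231 in high and low glucose, whose difference was already known when the other genes of iron handling were added by name. The glucose difference in MDA-MB-231 is therefore given for the 10 genes as a description without a test, while the glucose difference in MDA-MB-468 and the difference between the lines were tested. For TFRC the difference between the lines is also a description, since it shares the low-glucose MDA-MB-231 values. TF was nearly absent in MDA-MB-231, so its difference between the lines is described by its reads. Values are normalized read counts, that is reads divided by a size factor of the library, given as mean ± SD with n = 4. Fold changes are on the log2(value + 1) scale with their standard error (SE), and adjusted p-values come from limma over all genes tested, with a threshold of 0.05.

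The libraries held between 14094597 and 24425916 reads assigned to genes. The marker genes were those of the labelled lines. VIM, the mesenchymal filament vimentin, averaged 96228 ± 2742 in low-glucose MDA-MB-231 cells, against 21.5 ± 5.48 in low-glucose MDA-MB-468 cells, whereas CDH1 (E-cadherin) averaged 5.51 ± 1.12 and 2007 ± 54.2. EGFR averaged 62683 ± 1682 in MDA-MB-468 against 9138 ± 138 in MDA-MB-231. ESR1, the estrogen receptor gene, averaged 1.31 ± 1.01 and 57.9 ± 7.87.

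Cells take up iron mainly as transferrin, which binds the transferrin receptor at the surface and is carried into endosomes, where the iron is reduced and moved to the cytosol. Surplus iron is stored inside ferritin, a shell built from heavy and light chains, or leaves the cell through ferroportin. When iron is scarce, iron regulatory proteins bind stem loops called iron-responsive elements, which protects the transferrin receptor mRNA from decay and blocks translation of the ferritin and ferroportin mRNAs. For this reason the ferritin and ferroportin mRNA levels reported here say little about the amount of protein.

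The stem loops are shown because the receptor mRNA and the ferritin mRNAs share them but differ in their position, in the 3′ UTR or the 5′ UTR. The search looked in the untranslated regions of the reference transcripts for a C, 5 bases, the loop CAGTGN or CAGAGN, and 5 bases that pair with the first 5 (G with T allowed), on the transcript's strand only. In the GRCh37 reference, the 3′ UTR of TFRC on the minus strand of chromosome 3 held 5 such stretches, and the 5′ UTRs of FTH1 (chromosome 11, minus strand), FTL (chromosome 19, plus strand) and SLC40A1 (chromosome 2, minus strand) held 1 each. They are printed 5′ to 3′ as DNA, 28 bases each, with the 6 loop bases in capitals:
TFRC, chr3:195777901-195777928: atttatcagtgaCAGAGTtcactataaa
TFRC, chr3:195777851-195777878: aattatcggaagCAGTGCcttccataat
TFRC, chr3:195777447-195777474: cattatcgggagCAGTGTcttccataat
TFRC, chr3:195777382-195777409: ctgtatcggagaCAGTGAtctccatatg
TFRC, chr3:195777335-195777362: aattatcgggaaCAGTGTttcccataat
FTH1, chr11:61735047-61735074: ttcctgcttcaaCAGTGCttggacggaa
FTL, chr19:49468592-49468619: ctcttgcttcaaCAGTGTttggacggaa
SLC40A1, chr2:190445388-190445415: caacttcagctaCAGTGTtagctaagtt

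Of 20274 canonical protein-coding transcripts, 265 (1.31%) had a match in a UTR, 36 (0.178%) in the 5′ UTR and 229 (1.13%) in the 3′ UTR. The canonical transcripts of TF and STEAP3 also matched once each, in the 3′ UTR, so that 6 of the 10 genes had a match. A match is a description of the letters and not a shown binding site. Other transcripts and looser forms of the motif were not searched, so a gene without a match may still have such an element.

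The transferrin receptor gene TFRC (chromosome 3, 195739382 to 195809024, minus strand, 19 exons) showed the lowest level in MDA-MB-231 cells in high glucose. In MDA-MB-231 the 4 low-glucose libraries held 4071, 4128, 4129 and 4576 normalized reads of TFRC, and the 4 high-glucose libraries held 2150.4, 2229, 2282 and 2077. The groups did not overlap. The mean went from 4226 ± 235 to 2185 ± 89.7, a log2 difference of −0.95 (SE 0.04). In a bulk culture, fewer cells that express a gene and less of its mRNA per cell cannot be told apart.

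In MDA-MB-468 the low-glucose libraries held 6987, 7213, 7095 and 7061 normalized reads of TFRC and the high-glucose libraries 6076, 5969, 6119.8 and 5856. Again every high-glucose library was below every low-glucose library. TFRC fell from 7089 ± 94.3 to 6005 ± 118, with a log2 fold change of −0.24 (SE 0.03, adjusted p = 1.68e-06, limma). The 4 group means of TFRC were apart at each step, in the rising order MDA-MB-231 high glucose, MDA-MB-231 low glucose, MDA-MB-468 high glucose and MDA-MB-468 low glucose.

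Transferrin itself, the iron carrier that is known best as a liver protein of the blood, was measured in MDA-MB-468 and nearly absent in MDA-MB-231. The TF gene (chromosome 3, 133464884 to 133515485, plus strand) had normalized read counts of 475, 474, 523 and 479 in MDA-MB-468 in low glucose and of 1188, 1162, 1189 and 1246 in high glucose. No high-glucose library came near the low-glucose ones. TF rose from 488 ± 23.3 to 1196 ± 35.3, by 1.29 on the log2 scale (SE 0.05, adjusted p = 5.41e-12, limma), which was the largest change in MDA-MB-468 among the 10 genes.

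In MDA-MB-231, TF had 1 read in total over the 4 low-glucose libraries and 3 reads over the 4 high-glucose libraries, at or below the floor of 3 reads, so no glucose difference is given for it there. Against these, MDA-MB-468 had 2160.0 reads in low glucose and 4803 in high glucose. After scaling for depth, the level in MDA-MB-468 was 2094 times that in MDA-MB-231 in low glucose (95% counting interval 375 to 82738) and 1642 times in high glucose (95% counting interval 561 to 7965). These intervals cover counting error only.

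STEAP3 (chromosome 2, 119981407 to 120023228, plus strand) encodes an endosomal ferrireductase, which reduces transferrin-delivered iron. Its normalized read counts in MDA-MB-231 were 3749.9, 3571, 3802 and 3422 in low glucose and 3592, 3401, 3613 and 3634 in high glucose, and the groups overlapped (log2 difference −0.03, SE 0.04). In MDA-MB-468 they were 2369, 2394, 2438 and 2366 in low glucose and 2112, 2137, 2204 and 2188 in high glucose, with every high-glucose library lower. STEAP3 fell in MDA-MB-468 with a log2 fold change of −0.15 (SE 0.03, adjusted p = 0.000927, limma). STEAP3-AS1, an RNA on the opposite strand that shares 500 exon bases with STEAP3, held between 1.11 and 7.43 normalized reads per library.

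SLC11A2 (chromosome 12, 51373184 to 51422349, minus strand), also called DMT1, carries ferrous iron out of the endosome. Its counts in MDA-MB-231 were 517, 532, 519.6 and 579 in low glucose and 514, 551, 522 and 580.2 in high glucose, a log2 difference of 0.01 (SE 0.06). In MDA-MB-468 they were 1871, 1855, 1851 and 1753 in low glucose against 1906, 1889, 2018 and 1866 in high glucose. The groups overlapped in both lines. The log2 fold change of SLC11A2 in MDA-MB-468 was 0.07 with a 95% interval from −0.01 to 0.14 (adjusted p = 0.143, limma), so an increase at the upper end of that interval cannot be told from none. Under a correction for transcript length the adjusted p of SLC11A2 was 0.0459 by limma.

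**Figure D1:**
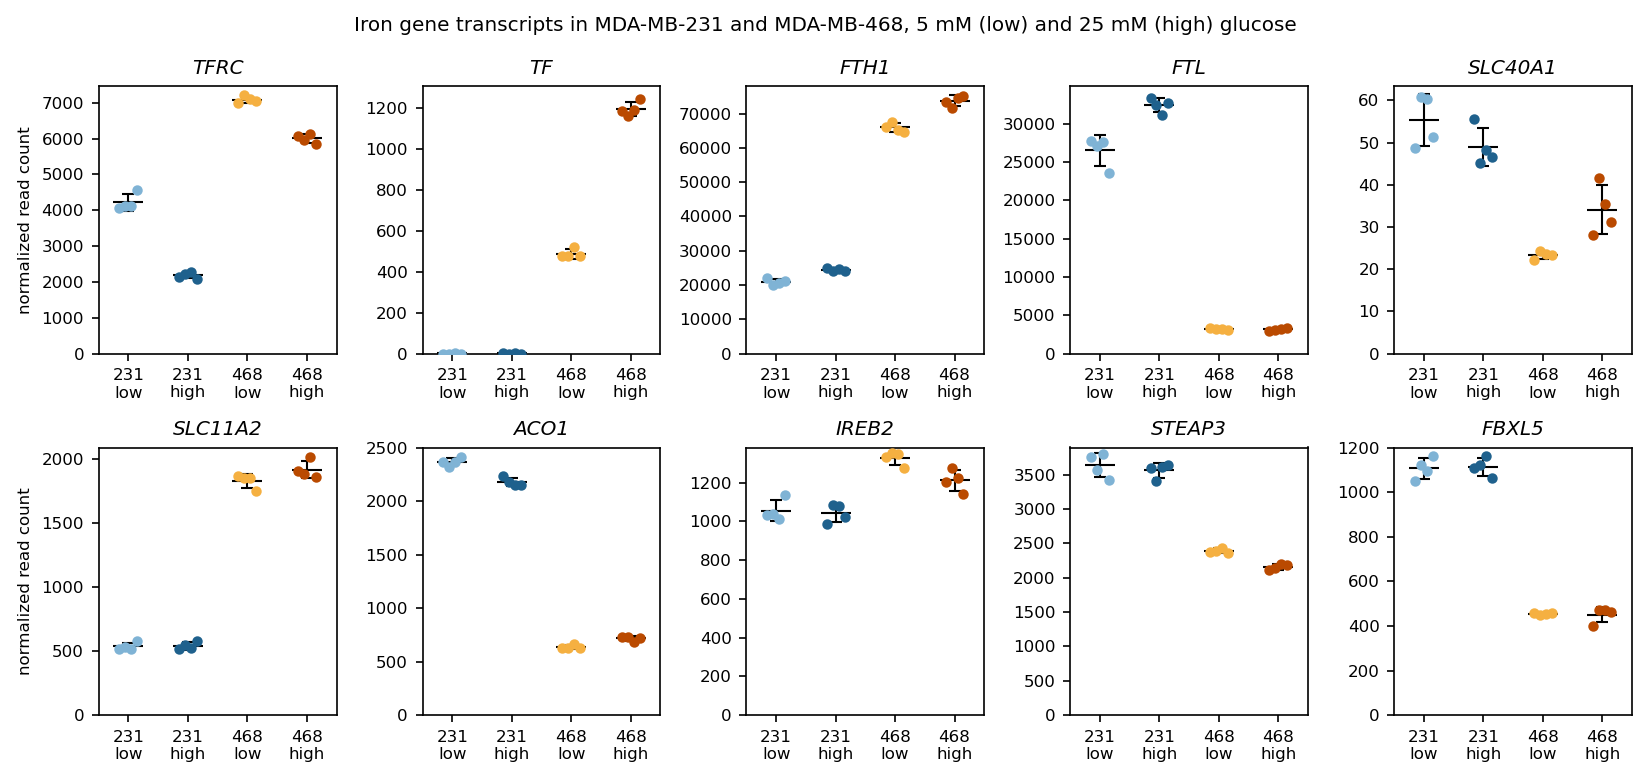
Normalized read count of each of the 10 iron genes in every library (points), with group mean (bar) and SD (whiskers), for both lines in 5 mM (low) and 25 mM (high) glucose; each panel has its own axis from 0. TFRC was lower in high glucose in both lines, TF was seen in MDA-MB-468 (mean 488 in low and 1196 in high glucose), and FTH1 and FTL were ordered in opposite ways between the lines.

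The ferritin genes were the 2 most abundant of the 10 in every group, per kilobase of transcript, and their order differed between the lines. FTH1 (chromosome 11, 61727190 to 61735106, minus strand) encodes the heavy chain, which oxidizes ferrous iron. In MDA-MB-231 it had 22063, 19923, 20534 and 21215 normalized reads in low glucose and 24931, 24188, 24578 and 24178 in high glucose. All high-glucose libraries were higher, with a log2 difference of 0.23 (SE 0.03).

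In MDA-MB-468, FTH1 had 66173, 67548, 65289 and 64758 normalized reads in low glucose and 73495, 71551, 74454 and 75224 in high glucose. The groups were apart, and FTH1 rose from 65942 ± 1219 to 73681 ± 1586, by 0.16 on the log2 scale (SE 0.03, adjusted p = 9.39e-05, limma). BEST1, whose transcript shares 177 exon bases with FTH1 on the opposite strand, held between 3.72 and 44.9 normalized reads. The 9 FTH1 pseudogenes in the table summed to between 0.378% and 0.602% of FTH1 in each library.

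FTL (chromosome 19, 49468566 to 49470136, plus strand) encodes the light chain, which helps to form the iron core. Its counts in MDA-MB-231 were 27746, 27049.6, 27596 and 23551 in low glucose and 33371, 32448, 31121 and 32668 in high glucose. The groups did not overlap, with a log2 difference of 0.29 (SE 0.04). In MDA-MB-468 the counts were 3325, 3142, 3183 and 3016 in low glucose and 2960.2, 3008, 3252 and 3342 in high glucose, and the groups overlapped. The log2 fold change of FTL in MDA-MB-468 was −0.01, with a 95% interval from −0.10 to 0.07 (adjusted p = 0.824, limma). The sign of FTL there depended on single libraries: it was positive, at most 0.0150, without replicate 1 of low glucose or without replicate 1 or 2 of high glucose.

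Per kilobase of transcript, the ratio of heavy-chain to light-chain ferritin mRNA was 0.575 ± 0.0548 in MDA-MB-231 in low glucose and 0.547 ± 0.0166 in high glucose. In MDA-MB-468 the ratio was 15.1 ± 0.563 in low glucose and 17.0 ± 0.747 in high glucose. The light chain was thus the more abundant ferritin mRNA in every MDA-MB-231 library and the heavy chain in every MDA-MB-468 library. The summed ferritin level per kilobase of transcript was closer between the lines, at 47810 ± 2342 and 57541 ± 1181 in MDA-MB-231 in low and high glucose, and at 58450.0 ± 1074 and 64854 ± 1495 in MDA-MB-468.

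**Figure D2:**
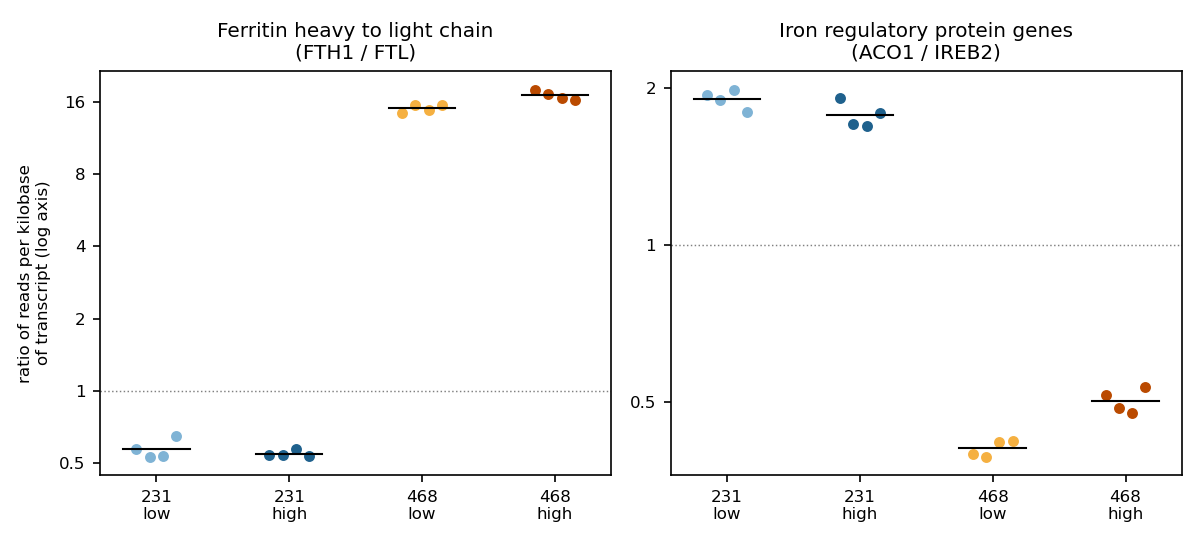
Ratio of reads per kilobase of transcript for FTH1 over FTL (left) and ACO1 over IREB2 (right) in each library (points) with group means (bars), on log axes; the dotted line marks a ratio of 1. The ferritin ratio lay between 0.533 and 0.652 in MDA-MB-231 but between 14.4 and 17.98 in MDA-MB-468, while the ACO1 to IREB2 ratio lay above 1 in every MDA-MB-231 library and below 1 in every MDA-MB-468 library.

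SLC40A1 (chromosome 2, 190425316 to 190448484, minus strand) encodes ferroportin, the iron exporter, and was the most weakly measured gene apart from TF in MDA-MB-231. Its counts in MDA-MB-231 were 48.6, 60.7, 60.3 and 51.4 in low glucose and 55.5, 45.2, 48.3 and 46.6 in high glucose, and the groups overlapped (log2 difference −0.17, SE 0.15). In MDA-MB-468 they were 22.1, 24.3, 23.6 and 23.4 in low glucose and 28.2, 41.5, 35.5 and 31.2 in high glucose, with every high-glucose library higher. The log2 fold change of SLC40A1 in MDA-MB-468 was 0.51 (SE 0.20, adjusted p = 0.0404, limma). The call depended on the setting: 11 of 17 alternatives lost it, with adjusted p between 0.0230 and 0.122 over all of them. It was lost on leaving out any 1 of the 8 MDA-MB-468 libraries except replicate 1 of high glucose, with the highest adjusted p by limma, 0.122, without replicate 2 of high glucose (log2 fold change 0.42).

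Of the sensing genes, ACO1 (chromosome 9, 32384601 to 32454767, plus strand) encodes the cytosolic aconitase that becomes iron regulatory protein 1 when it loses its iron-sulfur cluster. ACO1 counts in MDA-MB-231 were 2366, 2323, 2365 and 2413 in low glucose and 2235, 2180.5, 2153 and 2156 in high glucose, with every high-glucose library lower (log2 difference −0.12, SE 0.03). In MDA-MB-468 they were 623, 625, 664 and 631 in low glucose and 732, 731, 684 and 718 in high glucose, with every high-glucose library higher. ACO1 rose in MDA-MB-468 with a log2 fold change of 0.17 (SE 0.05, adjusted p = 0.00495, limma). The groups were thus apart in opposite directions in the lines, a difference that was not tested because one side of it is the MDA-MB-231 contrast. Over 17 alternatives the MDA-MB-231 difference of ACO1 lay between −0.13 and −0.08.

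IREB2 (chromosome 15, 78729773 to 78793795, plus strand) encodes iron regulatory protein 2, which is removed by degradation when iron is plentiful. Its counts in MDA-MB-231 were 1035, 1040.2, 1010.2 and 1137 in low glucose and 989, 1086, 1079 and 1022 in high glucose, overlapping (log2 difference −0.02, SE 0.05). In MDA-MB-468 they were 1330.1, 1353, 1349.6 and 1275 in low glucose and 1204, 1278, 1222 and 1142 in high glucose, where the lowest low-glucose library lay just under the highest high-glucose library. IREB2 fell in MDA-MB-468 with a log2 fold change of −0.13 (SE 0.04, adjusted p = 0.0143, limma). The call was lost by limma under a length correction (log2 fold change −0.07, adjusted p = 0.158), under the same correction with a replicate block (adjusted p = 0.142) and without replicate 4 of high glucose (log2 fold change −0.10, adjusted p = 0.0538), and the range over all 17 alternatives was 0.00485 to 0.158.

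FBXL5 (chromosome 4, 15606004 to 15683302, minus strand) encodes the iron-sensing subunit of the ubiquitin ligase that degrades iron regulatory protein 2. Its counts in MDA-MB-231 were 1051, 1123, 1095 and 1164 in low glucose and 1111, 1125, 1163 and 1064 in high glucose (log2 difference 0.01, SE 0.04). In MDA-MB-468 they were 459, 450.1, 452 and 457 in low glucose and 402, 469.7, 470.4 and 462 in high glucose. The groups overlapped in both lines, and replicate 1 of high glucose in MDA-MB-468 was the lowest of all 16. The log2 fold change of FBXL5 in MDA-MB-468 was −0.01 with a 95% interval from −0.14 to 0.11 (adjusted p = 0.856, limma), and it was 0.04 without that library.

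**Figure D3:**
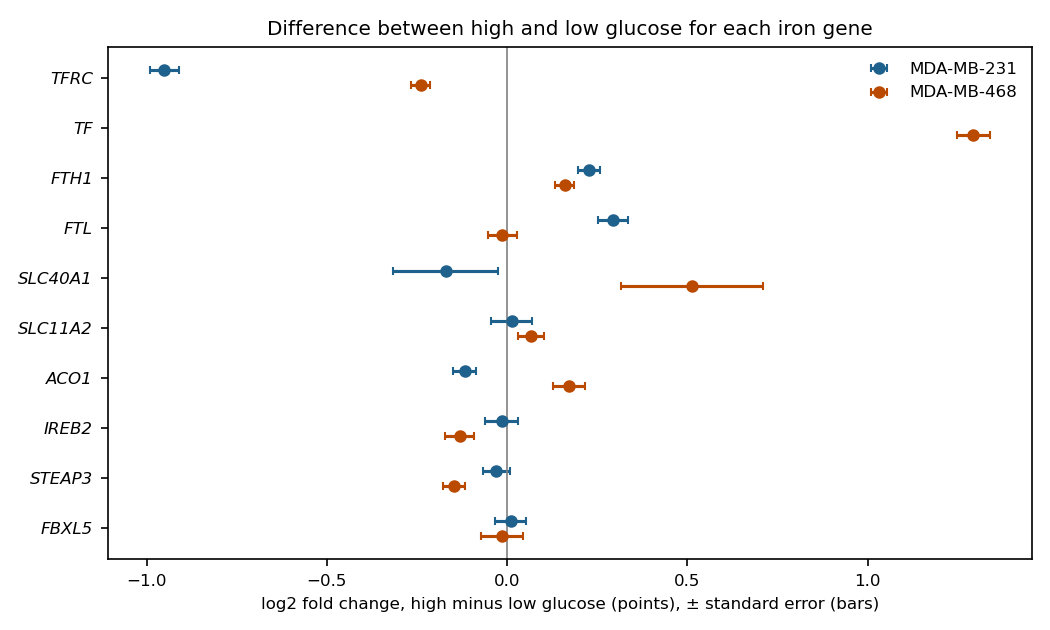
Log2 fold change between high and low glucose (points, high minus low) with its standard error (bars) for each iron gene, by line; TF is shown for MDA-MB-468 alone. The MDA-MB-231 values range from −0.95 for TFRC to 0.29 for FTL, and the MDA-MB-468 values from −0.24 for TFRC to 1.29 for TF.

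In MDA-MB-231, the groups of 4 of the 9 genes above the floor did not overlap, with FTH1 and FTL higher and TFRC and ACO1 lower in high glucose, beside 18.7% of the 14884 genes of that comparison. The choice of the list used this contrast, so the count is given with no reading. Of all genes tested in this line, 850.0 rose and 1395 fell, and under quantile normalization 1027 rose and 1114 fell. In MDA-MB-468, 7 of 10 genes passed the threshold, beside 47.6% of the 15757 genes tested. TF, FTH1, SLC40A1 and ACO1 were the 4 that rose (24.9% of all genes), and TFRC, IREB2 and STEAP3 the 3 that fell (22.7%). The groups of 6 of the 10 genes did not overlap, beside 42.5% of all genes. With such a share of all genes called in that line, these counts are not read as a result about the list. The median log2 fold change of the 10 genes was 0.03 in MDA-MB-468, against 0.00 for all genes.

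The lines differed at the control condition of low glucose in all 10 genes, beside 85.9% of the 16637 genes tested (for groups that did not overlap, 10 genes beside 81.3%), so the size of each difference is more telling than the count. MDA-MB-468 minus MDA-MB-231, the log2 difference was largest apart from TF for FTL, at −3.06 (SE 0.05, adjusted p = 4.02e-12, limma). ACO1 differed by −1.89 (SE 0.03, adjusted p = 3.04e-12, limma), FBXL5 by −1.28 (SE 0.04, adjusted p = 2.39e-10, limma), SLC40A1 by −1.20 (SE 0.13, adjusted p = 8.20e-06, limma) and STEAP3 by −0.60 (SE 0.04, adjusted p = 4.45e-08, limma). The genes higher in MDA-MB-468 were SLC11A2, by 1.77 (SE 0.04, adjusted p = 4.59e-11, limma), FTH1, by 1.66 (SE 0.03, adjusted p = 1.25e-11, limma), and IREB2, by 0.33 (SE 0.04, adjusted p = 2.57e-05, limma), together with TF. TFRC was higher by 0.75 (SE 0.04), given as a description because its low-glucose MDA-MB-231 values were used to choose the list. The count of 10 genes above includes TFRC, and also TF, which passed the filter of 0.5 CPM only through MDA-MB-468. Neither of these calls is read as a test result.

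The line and the medium in which it was maintained before the glucose experiment cannot be told apart in these differences. The median of all genes in this comparison was 0.08 on the log2 scale and −0.06 under the length correction, and none of the 9 genes other than TF changed direction or call under any of 17 alternatives. The sensors were balanced differently in the lines: per kilobase of transcript, the ratio of ACO1 to IREB2 was 1.91 ± 0.0793 and 1.78 ± 0.104 in MDA-MB-231 in low and high glucose, against 0.407 ± 0.0142 and 0.503 ± 0.027 in MDA-MB-468.

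Ordered by level per kilobase of coding sequence in MDA-MB-231 in low glucose, the genes ran from FTL (mean 50449) and FTH1 (38131) through STEAP3 (2434), TFRC (1854), ACO1 (887), FBXL5 (535), IREB2 (365) and SLC11A2 (319) to SLC40A1 (32.3) and TF (0.133). In MDA-MB-468 in low glucose the order on the same scale was FTH1 (120113), FTL (6031), TFRC (3109), STEAP3 (1601), SLC11A2 (1089), IREB2 (459), ACO1 (238), TF (233), FBXL5 (219) and SLC40A1 (13.6). TFRC was thus behind STEAP3 in the first line and ahead of it in the second. Neighbours depend on the gene model: per kilobase of the whole transcript, TFRC (843 ± 46.9) and STEAP3 (854) did not differ beyond their spread in MDA-MB-231 in low glucose, and TF in MDA-MB-468 moved below FBXL5, since the canonical transcript of TF is 20166 bases long with a coding length of 2094.

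Other iron genes were read from 5 lists of 67 genes, of which 61 were in the table. The lists were made with earlier results of these data known, so the counts called are not read as results about them. In MDA-MB-231, 7 rose and 5 fell of the 57 tested, and in MDA-MB-468, 21 rose and 10 fell of the 59 tested. The share called was 21.1% in the first line, beside 15.1% of all genes, and 52.5% in the second, beside 47.6%. The difference between the lines in the glucose response passed the threshold for 24 of 61 genes, 15 with a higher and 9 with a lower fold change in MDA-MB-468, beside 30.9% of all genes.

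Heme synthesis, which uses iron in its last step, was described by 8 genes. In MDA-MB-468, 4 rose and 0 fell, with a median log2 fold change of 0.20, and in MDA-MB-231, 0 rose and 1 fell, with a median of 0.07. The share called was 50% in MDA-MB-468, beside 47.6% of all genes, and 12.5% in MDA-MB-231, beside 15.1% of all genes (5.71% rose and 9.37% fell). Counting both directions, these were near the share over all genes. By direction, the 50% in MDA-MB-468 were all rises, beside 24.9% of all genes that rose. With 8 genes in a list made with earlier results known, this is not read as a result. CPOX, coproporphyrinogen oxidase, rose in MDA-MB-468 from 297 ± 25.3 to 458 ± 12.6 (log2 fold change 0.63, SE 0.07, adjusted p = 8.49e-07, limma) and fell in MDA-MB-231 from 1328 ± 50 to 1164 ± 30.9 (log2 fold change −0.19, SE 0.04, adjusted p = 0.00369, limma). ALAD, which acts at an early step of the pathway, rose in MDA-MB-468 with a log2 fold change of 0.45 (SE 0.05).

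Of 21 genes of mitochondrial iron and iron-sulfur cluster assembly, 6 rose and 2 fell in MDA-MB-468 and 2 rose and 1 fell in MDA-MB-231. At 38.1% and 14.3%, the shares called were below the 47.6% and the 15.1% of all genes in these lines. BOLA3, which helps to insert clusters into mitochondrial enzymes, rose in MDA-MB-468 from 49.7 ± 7.12 to 127 ± 19.4 (log2 fold change 1.33, SE 0.14, adjusted p = 8.38e-07, limma). NUBP1, of the cytosolic assembly machinery, fell with a log2 fold change of −0.29 (SE 0.07). In MDA-MB-231, ISCU, the cluster scaffold, rose by 0.23 (SE 0.04), and the transporter ABCB10 fell with a log2 fold change of −0.32 (SE 0.06).

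Iron import and reduction had 1 gene that rose and 1 that fell of 10 tested in MDA-MB-231, and 3 that rose and 3 that fell of 11 in MDA-MB-468. The shares called were 20% beside 15.1% of all genes in the first line, and 54.5% beside 47.6% in the second. The metal transporter SLC39A14 rose in MDA-MB-231 with a log2 fold change of 0.21 (SE 0.03, adjusted p = 0.000174, limma) and fell in MDA-MB-468 with −0.18 (SE 0.04, adjusted p = 0.00128, limma). LRP1, a receptor that takes up heme bound to hemopexin, fell in both lines, with log2 fold changes of −0.25 (SE 0.05) and −0.41 (SE 0.06). In MDA-MB-468 the ferrireductase CYBRD1 fell with −0.39 (SE 0.04) and the transporter SLC39A8 rose by 0.22 (SE 0.05).

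Among the genes of cytosolic iron handling, heme breakdown and export, 3 rose and 0 fell of 8 in MDA-MB-231, and 4 rose and 0 fell of 9 in MDA-MB-468. The shares called were 37.5% beside 15.1% of all genes in the first line, and 44.4% beside 47.6% in the second. The calls were all rises, beside 5.71% and 24.9% of all genes that rose in these lines. HMOX1, the heme oxygenase that releases iron from heme, rose in MDA-MB-231 from 407 ± 17.3 to 550.0 ± 41.5 (log2 fold change 0.43, SE 0.06, adjusted p = 8.84e-05, limma), with a log2 fold change of −0.06 (SE 0.07, adjusted p = 0.486, limma) in MDA-MB-468. BLVRB, a biliverdin reductase, rose in MDA-MB-231 by 0.30 (SE 0.07). In MDA-MB-468, CP, the ferroxidase ceruloplasmin, rose by 0.58 (SE 0.11), BLVRA by 0.26 (SE 0.07) and the transporter gene FLVCR2 by 0.31 (SE 0.11), although 8 of 17 alternatives lost the FLVCR2 call, 6 of them by leaving out 1 library (replicates 2, 3 and 4 of low and 1, 2 and 4 of high glucose), with adjusted p by limma up to 0.108.

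Known regulators of TFRC mRNA and partners of FBXL5 made up 10 genes, of which 1 rose and 2 fell in MDA-MB-231 and 4 rose and 5 fell in MDA-MB-468. The shares called were 30% beside 15.1% of all genes in the first line, and 90% beside 47.6% in the second. MYC, a transcription factor that can act on TFRC, fell in MDA-MB-231 from 4109 ± 47.6 to 3507 ± 75.9 (log2 fold change −0.23, SE 0.03, adjusted p = 3.46e-05, limma). The mRNA-decay factor ZFP36 rose there by 0.21 (SE 0.06) and its relative ZFP36L1 fell with −0.17 (SE 0.03). In MDA-MB-468, ZFP36 fell with −0.22 (SE 0.06), and MYC did not pass the threshold (log2 fold change −0.07, SE 0.03, adjusted p = 0.109, limma). ZFP36L1 fell in this line with −0.23 (SE 0.03) and the RNase gene ZC3H12A with −0.27 (SE 0.06). SKP1, a subunit of the ligase that holds FBXL5, rose by 0.28 (SE 0.04).

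**Figure D4:**
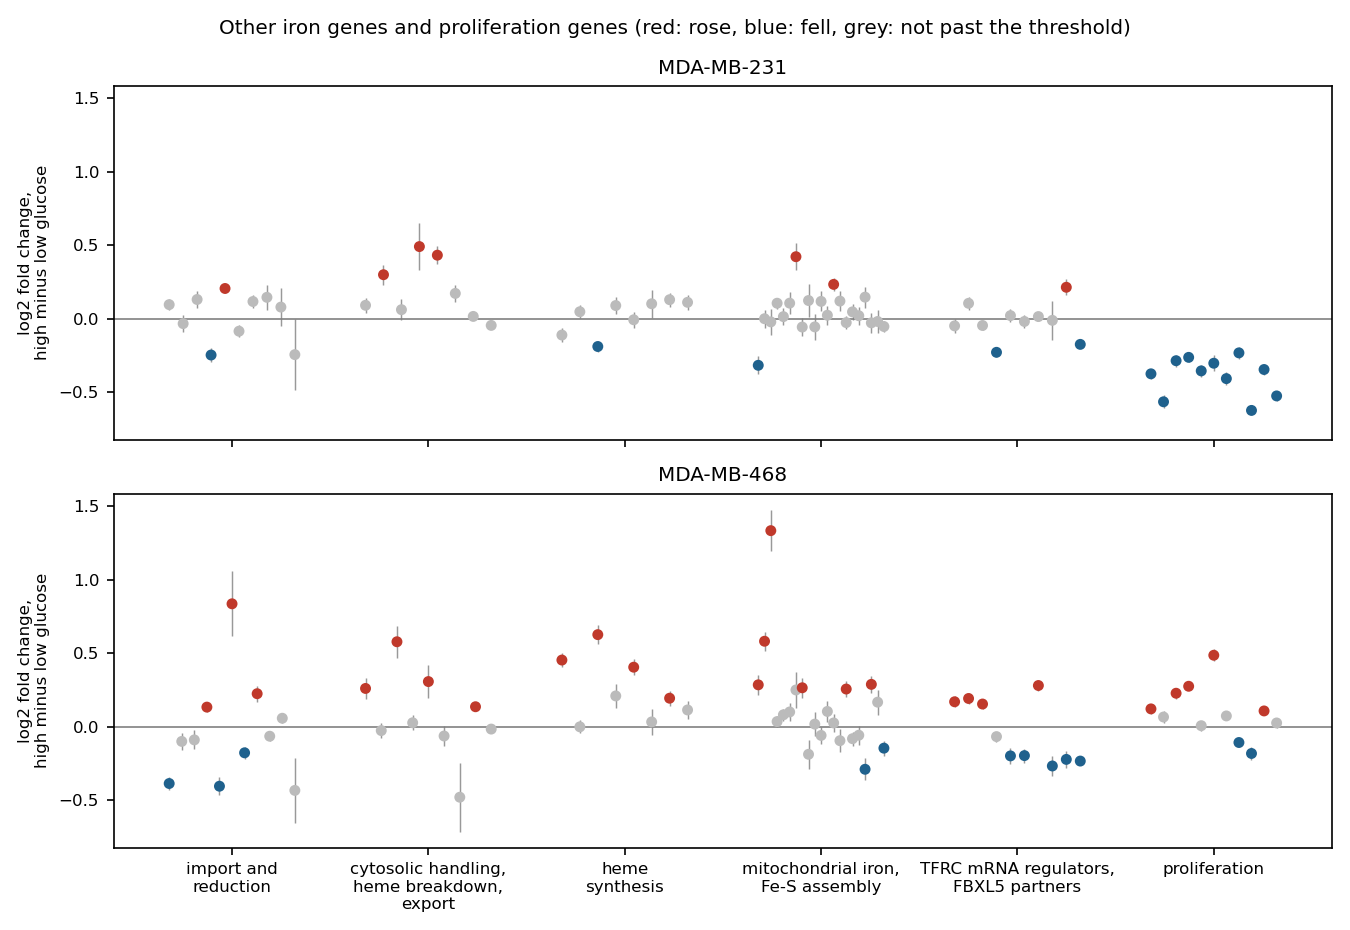
Log2 fold change between high and low glucose (points) with standard error (bars) for the other iron genes by list and for the 11 proliferation genes, with MDA-MB-231 at the top and MDA-MB-468 at the bottom; red points rose, blue points fell and grey points did not pass the threshold. The heme synthesis genes past the threshold were 1 that fell in MDA-MB-231 (12.5% of the list, beside 9.37% of all genes that fell) and 4 that rose in MDA-MB-468 (50%, beside 24.9% of all genes that rose). All 11 proliferation genes fell in MDA-MB-231, beside 9.37% of all genes.

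Genes of proliferation were examined beside TFRC, which dividing cells are known to express strongly. All 11 listed proliferation genes fell in MDA-MB-231, with a median log2 fold change of −0.35, beside 9.37% of all genes that fell. MKI67 fell with −0.62 (SE 0.03), CDK1 with −0.57 (SE 0.04) and TOP2A with −0.53 (SE 0.03). In MDA-MB-468, where TFRC fell too, 5 of the 11 rose and 2 fell, with a median of 0.07, beside 24.9% of all genes that rose and 22.7% that fell. MKI67 fell there too, with −0.18 (SE 0.04), as did MCM7 with −0.11 (SE 0.03), both named after their values were seen, and the largest rises were in the replication genes MCM5 (0.49, SE 0.04), MCM3 (0.27, SE 0.03) and MCM2 (0.23, SE 0.04). The proliferation list was made with earlier results of these data known, so its counts are not read as a result about it. The part of proliferation in the TFRC difference was not tested.

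Likeness between genes was described by Pearson's r over the 16 libraries after the mean of each line was subtracted, among 12106 genes, with no test, since the libraries share their groups and depth. The genes most like TFRC were KIF23 (r = 0.984), KIF20A (r = 0.983) and RRM2 (r = 0.983). Their log2 differences were −0.52, −0.41 and −0.61 in MDA-MB-231 and −0.16, −0.08 and −0.12 in MDA-MB-468. The MDA-MB-231 values of TFRC that were used to choose the list enter these r. FTH1 was most like TMEM87B (r = 0.95), LPIN1 (r = 0.934) and EEIG1 (r = 0.928), and FTL most like PPP1R14B (r = 0.941), BLVRB (r = 0.937) and ASS1 (r = 0.937). ACO1 was most like NIN (r = 0.937), CKAP2L (r = 0.934) and GPRC5A (r = 0.931), each lower in high glucose in MDA-MB-231 and higher in MDA-MB-468. These shared directions largely follow from choosing genes by their r with ACO1. SLC40A1 had ZBTB39 (r = 0.915), RANBP6 (r = 0.906) and NNT (r = 0.893) at the top, IREB2 had VIRMA (r = 0.901), GRPEL2 (r = 0.899) and BNIP2 (r = 0.888), and STEAP3 had MOV10 (r = 0.924), LRRC8A (r = 0.919) and DIS3L2 (r = 0.915). The weakest leading values were those of SLC11A2 with TTC30A (r = 0.836), IL20RA (r = 0.830) and PPP1R7 (r = 0.788), and of FBXL5 with CXXC4 (r = 0.821), RPS6KA5 (r = 0.792) and TRDMT1 (r = 0.762). CXXC4 did not reach the filter of 0.5 CPM in 2 libraries in MDA-MB-468, so its r includes very low values from that line.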

How the data were processed

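RNA from 16 samples was sequenced on an Illumina HiSeq machine, and per the labels there were 4 replicates of each line and glucose level. According to the study's methods, trimmed reads were aligned by the authors to hg19, with gene models from Ensembl, and counted; the submitters' processing notes list hg38 and edgeR, so the build differs between these sources, and the deposited table holds only Ensembl IDs. The counter and its use of strand are not given in the sources used here. The deposited values are a normalized signal, made by the authors from read counts by division with 1 size factor per library. Multiplying back gave whole reads for 100% of values in every library (tolerance 0.01 reads). Symbols were found for 16633 of 18332 IDs. Coordinates, transcripts and lengths are from GENCODE lifted to GRCh37.

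The main test was limma 3.58.1 (lmFit and eBayes with trend, R 4.3.3) on log2(value + 1), two-sided, with Benjamini-Hochberg adjustment over all genes that reached 0.5 CPM in 2 libraries or more of the comparison. Within-line fits used 8 libraries, and the difference in response between the lines used 16. Alternatives were a pseudocount of 5, no filter, TMM scaling, quantile normalization, a length correction, a replicate block, leaving out each library, and edgeR 4.0.16 and DESeq2 1.42.0 on the recovered reads. The labels do not say whether replicates were separate experiments, so p-values measure the spread between these samples, which may be technical. The members and all gene lists were chosen with earlier results of these data known. From each other list up to 3 genes per line were named, those of largest absolute fold change past the threshold with at least 5 CPM in the higher group; some genes that this rule picks are not reported here. Of the listed genes, SCARA5, NCOA4, FTMT, HEPH, HAMP, ALAS2 and PGR were not analysed here. A floor of 3 reads served to describe TF in MDA-MB-231 as too low to compare. Counts of 0 were not replaced by the floor.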

Additional observations from a re-analysis of the deposited data

Results flagged for a closer look

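Single libraries stood apart from the other 3 of their group by Dixon's 95% criterion for 4 samples in 5 of the 38 groups of the 10 genes, where chance gives about 1 in 20. These were TFRC in MDA-MB-231 low glucose (4576 in replicate 4, the others at 4071 to 4129), TF in MDA-MB-468 low glucose (523 in replicate 3), FTL in MDA-MB-231 low glucose (23551 in replicate 4), SLC11A2 in MDA-MB-468 low glucose (1753 in replicate 4) and FBXL5 in MDA-MB-468 high glucose (402 in replicate 1).

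ACO1 was apart between low and high glucose in opposite directions in the lines, with log2 fold changes of 0.17 in MDA-MB-468 and −0.12 in MDA-MB-231, and the difference was not tested. Over 17 alternatives the ACO1 values lay between 0.16 and 0.25 in MDA-MB-468 and between −0.13 and −0.08 in MDA-MB-231. The MDA-MB-231 value, a description here, would have missed the threshold in 6 of the 17. Among the other iron genes named, 13 differed between the lines in their response to glucose by the interaction term of limma over 16 libraries. The named genes were picked by their fold change within a line in these same libraries, which favours a difference between the lines. Their count is therefore not read as a result. Of all 61 genes of the lists, 24 passed, beside 30.9% of all genes. As MDA-MB-468 minus MDA-MB-231, the difference in log2 fold change was positive for BOLA3 (1.35), CPOX (0.81), ABCB10 (0.60), ALAD (0.56), SLC39A8 (0.31), SKP1 (0.27) and MYC (0.16). It was negative for HMOX1 (−0.50), CYBRD1 (−0.48), NUBP1 (−0.44), ZFP36 (−0.44), SLC39A14 (−0.38) and BLVRB (−0.33). The adjusted p ranged from 3.54e-07 for CPOX to 0.0208 for BLVRB. MYC passed in 24 of 25 alternatives and missed under quantile normalization (limma adjusted p = 0.0570), and the other 12 passed in all 25.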

How the results depend on the processing

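The counts of genes called stayed within 1.5 times the main count under every alternative run. Replicate numbers gave no sign of pairing in MDA-MB-231 and a weak sign in MDA-MB-468. The correlation of same-numbered deviations averaged −0.0291 for MDA-MB-231, with 0 of 4 numbers matching best with themselves. For MDA-MB-468 it averaged 0.0260, and 3 of 4 numbers matched best with themselves, a hint from the data and not from the design. Fits with a replicate block called 1624 genes in MDA-MB-231 in place of 2245, 7383 in MDA-MB-468 in place of 7495 and 14258 between the lines in place of 14287. Of the 10 genes, 6 were called in MDA-MB-468 and 10 between the lines under the replicate block, with TFRC and TF among the latter. In MDA-MB-468 the sign of 2 genes turned on leaving out 1 library: the log2 fold change of FTL ranged from −0.0434 to 0.0150 and that of FBXL5 from −0.0362 to 0.0398. SLC40A1 in MDA-MB-468 missed the threshold in 11 of 17 alternatives, IREB2 in 3 and FLVCR2 in 8, and SLC11A2 passed it in 2, both with the length correction. In MDA-MB-231, LRP1 and ZFP36 missed it in 1 alternative, the replicate block with the length correction (limma adjusted p = 0.0740 and 0.0676). For low genes such as SLC40A1, depth limits the precision.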
